A study of Mus musculus with 18 samples.

Results

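Germ cells sorted from juvenile mouse testes were compared with germ cells sorted from embryonic gonads. The comparison rests on 4 of the 18 arrays of the series, chosen by their titles: 2 arrays of Dazl-GFP-positive cells from juvenile testis and 2 arrays of Dazl-GFP-positive cells from E13.5 gonads. The other 14 arrays, from 7 groups of cultured cells, entered the estimate of the spread. They also entered the filter on probes and the choice of the probe for each gene. Mice of the juvenile group were between postnatal days 7 and 11, and the embryonic group was collected in mid-gestation, at E13.5. In both groups the mice were of a mixed C57BL/6 and 129SV background and labelled male, the cells carried a green fluorescent protein (GFP) reporter for Dazl, a gene that germ cells use to control translation, and GFP-positive cells were isolated by flow sorting after enzymatic dissociation. Agilent mouse arrays, read in 1 colour, measured the total RNA. The labels do not say whether animals were pooled or whether the arrays of a group came from different animals, so that p-values measure only the spread between these samples, which may be technical. Each array measured a sorted population as a whole, so fewer cells of a type and less RNA per cell cannot be told apart.

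Primordial germ cells (PGCs) are the cells of the embryo from which sperm and eggs descend, and they keep much of the transcription factor network of pluripotent cells after they reach the gonad. In the male gonad they then enter mitotic arrest, with Nodal signalling and the RNA-binding protein NANOS2 as early signs of the male fate, whereas in the female gonad retinoic acid switches on Stra8 and the cells enter meiosis. After birth the male cells resume division as spermatogonia: undifferentiated ones depend on the growth factor GDNF, received by the co-receptor GFRA1 with RET, and differentiating ones respond to retinoic acid and lead into meiosis.

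A level is given here as the log2 of a probe's signal over the 75th percentile of its array, so that 0 stands for a probe at that percentile. Values of a group are given in the order replicate 1 and replicate 2. The 75th percentile was 474 and 435 intensity units on the juvenile testis arrays, against 343 and 359 on the E13.5 arrays, and 64.6% and 68.9% of the probes were well above background on the juvenile testis arrays, against 64.0% and 61.9% on the E13.5 arrays. The lowest levels at which a probe was well above background were -5.44 and -5.95 on the juvenile testis arrays and -5.42 and -5.35 on the E13.5 arrays. All 4 arrays lay on 1 slide that held no other group. Levels correlated across genes with a Pearson r of 0.967 between the juvenile testis arrays and 0.943 between the E13.5 arrays, against 0.887 to 0.908 between arrays of different groups. The share of genes that lay more than 1 log2 unit apart was 18.2% between the juvenile testis replicates and 25.9% between the E13.5 replicates, against 4.00% to 13.9% within the 7 groups of cultured cells.

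The library labelled E13.5 replicate 1 went against its label. Counts or medians of the gene lists below are therefore also given against each E13.5 array alone. Differences of single genes are also given without an array where its removal ended a call or moved the value by over 1.5 times. Against 1 E13.5 array alone that side has no replicate, and the spread comes from the other groups, most of them cultured cells. The same holds for juvenile testis when 1 of its arrays is left out. Calls of such fits are a description and not a check. Uba1y, a Y-linked ubiquitin-activating enzyme, was at 4.73 and 4.93 in juvenile testis, against -7.38 in E13.5 replicate 1 and 4.51 in E13.5 replicate 2. Eif2s3y, a Y-linked translation initiation factor needed by spermatogonia, was at 2.37 and 2.0 in juvenile testis, against -7.29 in E13.5 replicate 1 and 3.17 in E13.5 replicate 2. Both genes were therefore at similar levels on 3 of the 4 arrays and were not well above background on the array of E13.5 replicate 1, which is labelled male like the others. Ddx3y, a Y-linked RNA helicase, and Kdm5d, a Y-linked histone demethylase, split in the same way, with -7.45 and -7.25 in E13.5 replicate 1 and -1.36 and -1.82 in E13.5 replicate 2. Zfy1 and Zfy2, Y-linked zinc finger genes, were well above background on both E13.5 arrays, at -3.34 and -2.3 for Zfy1 and -4.79 and -2.31 for Zfy2. Of the 9 genes tested on chromosome Y, 9 were called higher in juvenile testis against E13.5 replicate 1 alone, and 5 were called higher and 1 lower against E13.5 replicate 2 alone.

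**Figure D1:**
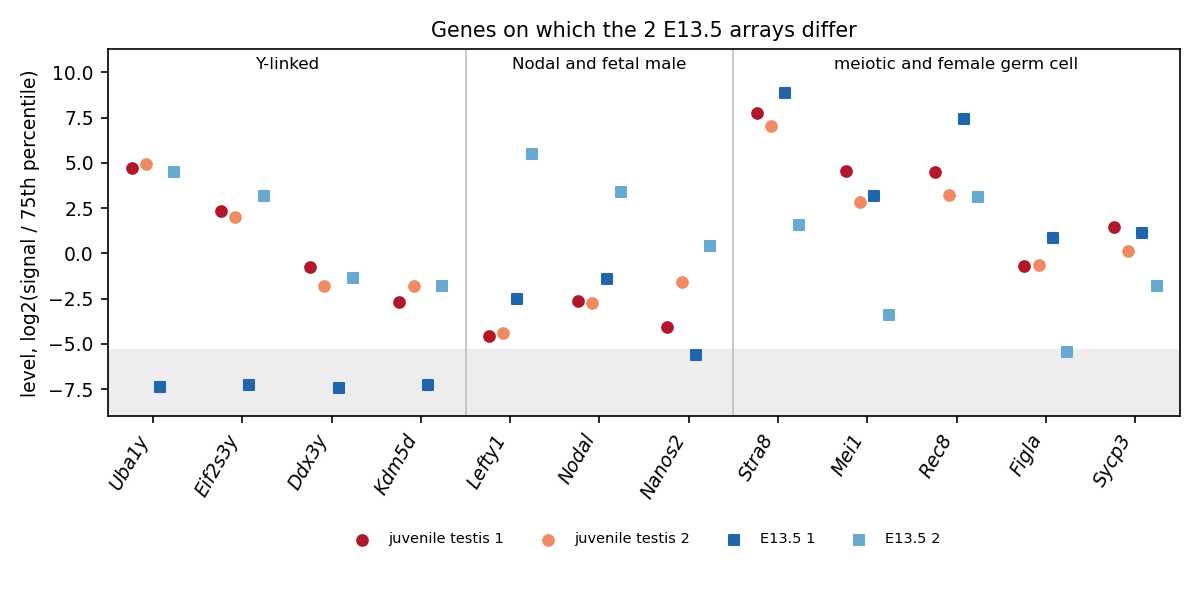
Levels of 12 genes (log2 of the signal over the array's 75th percentile) on the juvenile testis arrays (circles) and the E13.5 arrays (squares), 1 point per array; the grey band lies below the level at which probes were well above background. The Y-linked genes and the Nodal and fetal male genes were lower on E13.5 replicate 1 than on E13.5 replicate 2, and Stra8, Mei1, Rec8, Figla and Sycp3 ran the other way.

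The 2 E13.5 arrays also differed in genes of the male and female germ cell programmes and, as given below, in Sertoli genes. These differences are described as values with no test. The 10 named genes with the largest excess on E13.5 replicate 2 among those well above background there included, with Uba1y and Eif2s3y, Cst9, Pmaip1, Ucma, Lefty1, Lefty2, Otx2 and Ctsw. Lefty1, a feedback inhibitor of Nodal, was at -2.54 in E13.5 replicate 1 and 5.5 in E13.5 replicate 2. Lefty2, a related inhibitor, was at -4.39 in E13.5 replicate 1 and 3.33 in E13.5 replicate 2. The pattern in these genes was 1 high array of the 4, since juvenile testis was at -4.57 and -4.41 for Lefty1 and -3.44 and -3.55 for Lefty2. In the other direction the 10 genes were Cdx2, Phlda2, Sct, Stra8, Lypd4, Cstad, Mei1, Figla, Gata2 and Ovol1. Stra8 was at 8.87 in E13.5 replicate 1 and 1.55 in E13.5 replicate 2, Mei1, a gene needed for meiotic double-strand breaks, was at 3.2 and -3.4, and Figla, an oocyte transcription factor, was at 0.84 and -5.46. Cdx2, a caudal homeobox gene, was at 3.1 and -5.12. Across the 551 genes tested on chromosome X the median of E13.5 replicate 1 minus replicate 2 was 0.47, against -0.07 across the 14879 autosomal genes.

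Across all genes the arrays of juvenile testis and E13.5 differed widely. With all 18 arrays in 1 limma fit, 6575 of 18870 genes tested (34.8%) passed an adjusted p (Benjamini-Hochberg) of 0.05, 3016 (16%) higher and 3559 (18.9%) lower in juvenile testis, and 8203 had an unadjusted p under 0.05. That fit takes its spread from all 9 groups, and juvenile testis and E13.5 spread more than the rest. A fit of the 4 arrays alone called 365 genes (1.93%), 191 higher (1.01%) and 174 lower (0.922%), and a fit of all arrays with weights by group spread called 1549 (8.21%), 592 higher (3.14%) and 957 lower (5.07%). Of the 6575 genes, 258 were called in all 3 fits. List counts in each of these 3 fits are read against the shares of all genes given here. The groups did not overlap for 10496 genes (55.6%). Against E13.5 replicate 1 alone 6660 genes (35.3%) were called, of which 3097 were higher (16.4%) and 3563 lower (18.9%), and against E13.5 replicate 2 alone 7610 (40.3%) were called, of which 3502 were higher (18.6%) and 4108 lower (21.8%). These comparisons share the juvenile testis arrays: 1939 of the genes called higher and 2340 of those called lower were called the same way against each E13.5 array, and 229 genes were called in opposite directions. The median difference of all genes was -0.08, and it was -0.23 when arrays were scaled to their median and -0.27 after normexp background correction, so differences between genes are read against these values.

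**Figure D2:**
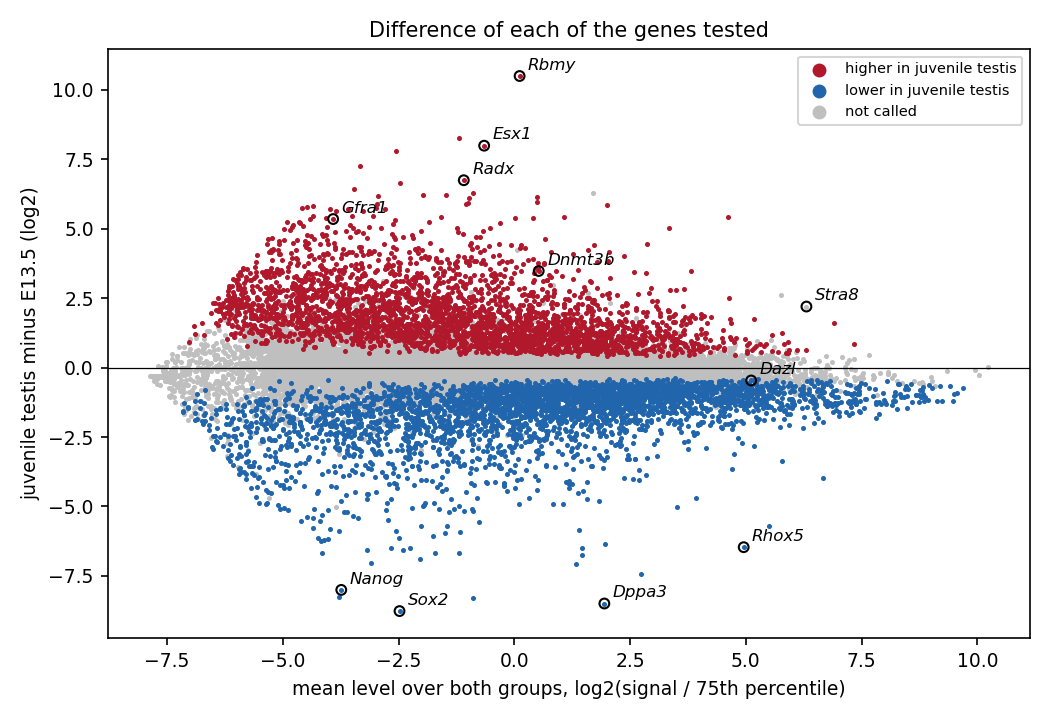
Juvenile testis minus E13.5 (log2) against the mean level of both groups for the 18870 genes tested, with 3016 genes called higher in red, 3559 called lower in blue and the others in grey. Rbmy, Esx1 and Radx lie at the top and Sox2, Dppa3 and Nanog at the bottom, Dazl lies near 0, and Stra8 is not called.

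Genes of the pluripotency and PGC programme fell together in juvenile testis. Of 29 genes listed, 27 were tested and all of those had both E13.5 arrays well above background; 22 were lower in juvenile testis and 1 was higher, with a median difference of -2.92 against -0.08 over all genes. The median was -3.26 against E13.5 replicate 1 alone and -3.21 against E13.5 replicate 2 alone. The count was 12 lower in the fit of the 4 arrays and 17 lower with array weights. Dppa3 (Stella), a chromatin protein of PGCs and oocytes, was at -2.17 and -2.43 in juvenile testis, against 5.43 and 6.95 in E13.5. Its groups lay far apart, with all 4 arrays well above background, and the difference was -8.49 ± 0.35 (SE), with an adjusted p of 1.12e-07 in limma and 0.0435 in the fit of the 4 arrays. Sox2, a partner of OCT4 in pluripotent cells, was at -7.29 and -6.43 in juvenile testis, against 1.61 and 2.19 in E13.5. No juvenile testis array was well above background for Sox2, so its level there was at least 194-fold lower (limma adjusted p of 1.57e-08, and 0.0435 with the 4 arrays alone). Nanog, a homeobox gene of the same network, was at -7.48 and -8.0 in juvenile testis, against -0.82 and 1.35 in E13.5. It too was not well above background on either juvenile testis array and was at least 62.3-fold lower (limma adjusted p of 9.85e-07).

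Pou5f1, which encodes OCT4, was at -1.91 and 0.75 in juvenile testis, against 3.67 and 4.78 in E13.5. It remained well above background on both juvenile testis arrays, which differed by more than the E13.5 arrays did, and the difference was -4.8 ± 0.62 (limma adjusted p of 0.00016, and 0.0922 with the 4 arrays alone). Prdm1, Tfap2c, Ifitm3, Tdh and Klf2, also lower, were chosen for mention after their values were seen. Prdm1 (BLIMP1), which represses the somatic programme when PGCs are specified, was at -4.27 and -5.45 in juvenile testis, against 0.13 and 1.56 in E13.5. Both E13.5 arrays lay above both juvenile testis arrays, of which 1 was well above background, and the difference was -5.71 ± 0.42. Tfap2c, which acts downstream of PRDM1 in PGCs, was at -1.33 and -0.8 in juvenile testis, against 2.85 and 2.06 in E13.5, a difference of -3.53 ± 0.33. Ifitm1 and Ifitm3, close relatives whose probes need not tell them apart, encode membrane proteins of early PGCs and differed by -6.34 and -4.11. The nuclear receptor gene Esrrb differed by -5.1, Dppa2 by -3.51, the threonine dehydrogenase gene Tdh by -4.68 and Klf2 by -2.82. Klf4, a Kruppel-like factor that is also expressed in postmeiotic germ cells and Sertoli cells, was the 1 member that rose, at 3.69 and 3.49 in juvenile testis, against 1.73 and 2.12 in E13.5, a difference of 1.66 ± 0.24 (limma adjusted p of 0.000363).

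Windows from 250 bases before to 50 after the gene start, from RefSeq on GRCm38.p6, are printed for Sox2 and Nanog, both among the pluripotency factors that fell, and for Stra8, on which the E13.5 arrays split. Windows were searched on both strands for TTTGCAT, with ATGCAAA as its form on the other strand, the core of the octamer bound by POU factors such as OCT4, and for AGGTCA, with TGACCT as its form on the other strand, the half-site of nuclear receptors such as those of retinoic acid. Capitals mark the octamer core in Nanog and Sox2 and the half-site in Stra8.
Of 2 windows listed for Nanog, 1 is printed.
Nanog, chr6:122707239-122707538, plus strand: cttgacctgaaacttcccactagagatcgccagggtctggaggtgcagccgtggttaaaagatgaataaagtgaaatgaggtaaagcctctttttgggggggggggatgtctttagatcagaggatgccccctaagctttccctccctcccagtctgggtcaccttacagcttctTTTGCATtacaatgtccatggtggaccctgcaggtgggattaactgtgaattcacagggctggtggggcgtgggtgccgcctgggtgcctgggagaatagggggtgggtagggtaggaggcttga
Sox2, chr3:34649745-34650044, plus strand: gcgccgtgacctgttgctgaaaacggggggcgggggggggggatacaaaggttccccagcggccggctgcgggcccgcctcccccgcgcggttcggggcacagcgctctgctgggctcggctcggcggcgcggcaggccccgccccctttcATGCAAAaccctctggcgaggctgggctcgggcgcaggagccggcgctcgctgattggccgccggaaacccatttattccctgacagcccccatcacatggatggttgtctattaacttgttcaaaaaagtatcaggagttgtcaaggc
Stra8, chr6:34920698-34920997, plus strand: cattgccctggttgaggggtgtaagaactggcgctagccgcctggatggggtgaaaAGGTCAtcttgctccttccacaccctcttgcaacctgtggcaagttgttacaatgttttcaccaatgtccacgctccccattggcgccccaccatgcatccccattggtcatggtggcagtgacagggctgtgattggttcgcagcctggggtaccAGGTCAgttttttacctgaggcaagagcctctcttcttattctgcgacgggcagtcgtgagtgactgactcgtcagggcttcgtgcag
The octamer core began 75 bases before the start of Nanog and 99 bases before that of Sox2, and the 2 half-sites began 194 and 38 bases before the start of Stra8. Nanog and Sox2 each also held 1 half-site, which is not marked, and no match of one motif overlapped a match of the other in these windows. The octamer core was in 4.63% of all 32851 windows, and the half-site was in 16.3%. Of the 22 pluripotency and PGC genes lower in juvenile testis, 13 had a window. The octamer core was in 3 of the 13, against 5.24% of all 27025 genes with a window. The half-site was in 5 of the same 13, against 18.1% of all genes with a window. Of the meiotic entry and recombination genes tested, 16 had a window. Among these 16 the octamer core was in 2 and the half-site in 3. A match is a description of these letters and not evidence of binding.

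**Figure D3:**
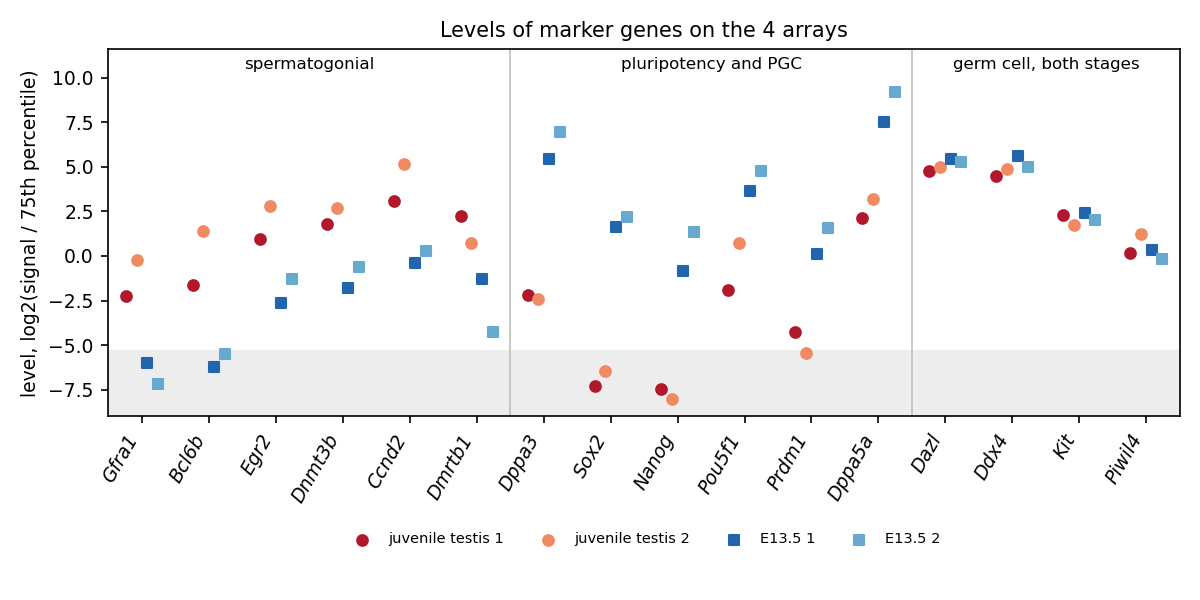
Levels of 16 marker genes (log2 of the signal over the array's 75th percentile) on the juvenile testis arrays (circles) and the E13.5 arrays (squares), 1 point per array; the grey band lies below the level at which probes were well above background. The 6 spermatogonial genes shown are members called higher in juvenile testis, and other members of their lists were lower or not called. The 6 pluripotency and PGC genes shown are members called lower. The groups do not overlap for these genes, nor for Dazl and Ddx4, as for 55.6% of all genes. Dazl, Ddx4, Kit and Piwil4 differ by less than 1.

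Both populations had high levels of the general germ cell genes, the defining markers of the labelled cell type. Dazl, the gene of the sort, was at 4.79 and 4.98 in juvenile testis, against 5.42 and 5.27 in E13.5. The groups were -0.47 ± 0.16 apart (limma adjusted p of 0.0414), a call that was lost with the 4 arrays alone (0.483) and with array weights (0.471), and whose sign turned under quantile normalization (0.019). Ddx4, the vasa RNA helicase, was at 4.47 and 4.89 in juvenile testis, against 5.59 and 4.98 in E13.5, and Kit, the receptor of PGCs and of differentiating spermatogonia, was at 2.27 and 1.75 in juvenile testis, against 2.39 and 2.0 in E13.5. Neither difference passed the test (limma adjusted p of 0.0623 for Ddx4 and 0.575 for Kit). Of 18 gonadal germ cell genes tested, 2 were higher and 3 lower in juvenile testis, against 16% and 18.9% of all genes. The counts were 2 higher and 3 lower against E13.5 replicate 1 alone (16.4% and 18.9% of all genes) and 7 higher and 3 lower against E13.5 replicate 2 alone (18.6% and 21.8% of all genes). They were 1 higher and 0 lower with array weights and 0 higher and 0 lower with the 4 arrays alone. Gtsf1, a zinc finger partner of Piwi proteins, differed by 2.78 ± 0.49, and Taf7l, an X-linked general transcription factor of germ cells, by 3.42 ± 0.94. Dnd1, an RNA-binding protein that PGCs need to survive, and Stk31, a testis kinase, were lower, at -1.21 ± 0.4 and -1.06 ± 0.26. Dazl differed by -0.37 without juvenile testis replicate 1 (not called) and -0.39 without E13.5 replicate 1 (not called), and Dnd1 differed by -0.46 without juvenile testis replicate 1 (not called), -1.95 without juvenile testis replicate 2 and -0.87 without E13.5 replicate 2 (not called). Taf7l differed by 3.46 without juvenile testis replicate 1 (not called), 3.37 without juvenile testis replicate 2 (not called), 5.53 without E13.5 replicate 1 and 1.3 without E13.5 replicate 2.

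Several genes of undifferentiated spermatogonia were higher in juvenile testis. Of the markers fixed for these cells, Gfra1 was called higher, Etv5 was called lower, and Id4 and Lhx1 were not called. Ret was not tested, and Zbtb16 had no probe. Gfra1 was at -2.27 and -0.21 in juvenile testis, against -5.98 and -7.19 in E13.5. It was well above background on both juvenile testis arrays and on neither E13.5 array, so it was at least 17.7-fold higher in juvenile testis (limma adjusted p of 0.000444, 0.0636 with the 4 arrays alone and 0.19 with array weights). Bcl6b, a transcription factor induced by GDNF, was at -1.64 and 1.39 in juvenile testis, against -6.23 and -5.47 in E13.5. The groups separated in the same way, and Bcl6b was at least 38.4-fold higher (limma adjusted p of 0.000142). Pou3f1, another POU factor that responds to GDNF, was at 3.76 and 4.93 in juvenile testis, against 2.73 and 1.9 in E13.5, a difference of 2.03 ± 0.34 (limma adjusted p of 0.000828). Egr2, Upp1 and Neurog3 were also higher. Egr2, an early growth response gene, differed by 3.84 ± 0.55, and Neurog3, a factor of spermatogonia on the way to differentiation, by 1.83 ± 0.56. The uridine phosphorylase gene Upp1 was at least 1.28-fold higher, with no E13.5 array well above background (-0.31 on the log2 scale after normexp background correction). Neurog3 differed by 1.14 without juvenile testis replicate 2 (not called) and 1.29 without E13.5 replicate 1 (not called).

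As a list, undifferentiated spermatogonial genes moved both ways. Of 27 members tested, 7 were higher and 4 lower, against 16% and 18.9% of all genes, with a median of 0.32. In the fit of the 4 arrays 0 were called, and 3 were higher and 2 lower with array weights. The lower members were Utf1, Cdh1, Etv5 and Sall4. Utf1 was at -1.91 and -1.51 in juvenile testis, against 1.63 and 3.75 in E13.5, a difference of -4.4 ± 0.48, and Cdh1, which encodes E-cadherin, was at -2.01 and -0.7, against 0.97 and 3.03, a difference of -3.35 ± 0.53. Both lost the call with the 4 arrays alone (0.0744 for Utf1 and 0.127 for Cdh1). Nanos2, which holds spermatogonia in the undifferentiated state and marks male fetal germ cells, was at -4.07 and -1.59 in juvenile testis, against -5.63 and 0.39 in E13.5. Its difference was 2.8 against E13.5 replicate 1 (where it was not well above background), and -3.22 against E13.5 replicate 2, so the sign depended on the E13.5 array. The juvenile testis arrays also differed on this list: 20 of its members were lower by more than 1 on replicate 1 than on replicate 2 and 0 were higher by more than 1, against 9.1% of all genes lower and 9.13% higher. Etv5 differed by -1.12 without juvenile testis replicate 1 (not called) and -1.14 without E13.5 replicate 2 (not called), and Sall4 differed by -0.48 without juvenile testis replicate 1 (not called), -1.78 without juvenile testis replicate 2 and -0.85 without E13.5 replicate 2 (not called).

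Of 16 genes of differentiating spermatogonia tested, 6 were higher in juvenile testis and 1 was lower, against 16% and 18.9% of all genes. The median was 1.88, and 4 were called higher with array weights and 0 with the 4 arrays alone. Dnmt3b, a de novo DNA methyltransferase, was at 1.82 and 2.71 in juvenile testis, against -1.78 and -0.64 in E13.5. Ccnd2, a cyclin of differentiating spermatogonia, was at 3.07 and 5.18 in juvenile testis, against -0.38 and 0.3 in E13.5. Neither gene's groups overlapped, with differences of 3.47 ± 0.34 for Dnmt3b (limma adjusted p of 2.25e-05) and 4.17 ± 0.55 for Ccnd2 (limma adjusted p of 0.000173). Dmrt1, a regulator of the switch from mitosis to meiosis, was at 2.19 and 2.48 in juvenile testis, against 0.65 and 0.73 in E13.5, and its relative Dmrtb1 was at 2.22 and 0.71, against -1.27 and -4.26. The differences were 1.64 ± 0.21 and 4.24 ± 0.74. Scml2, a germline Polycomb protein, differed by 2.83 ± 0.32, and Crabp1, a retinoic acid binding protein, by 2.19 ± 0.55. Sohlh2, a helix-loop-helix factor of early spermatogonia, was the lower member at -1.09 ± 0.3. Crabp1 differed by 3.34 without E13.5 replicate 1 and 1.05 without E13.5 replicate 2, and Dmrtb1 differed by 2.74 without E13.5 replicate 2. Sohlh2 differed by -0.62 without juvenile testis replicate 1 (not called) and -0.91 without E13.5 replicate 1 (not called).

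**Figure D4:**
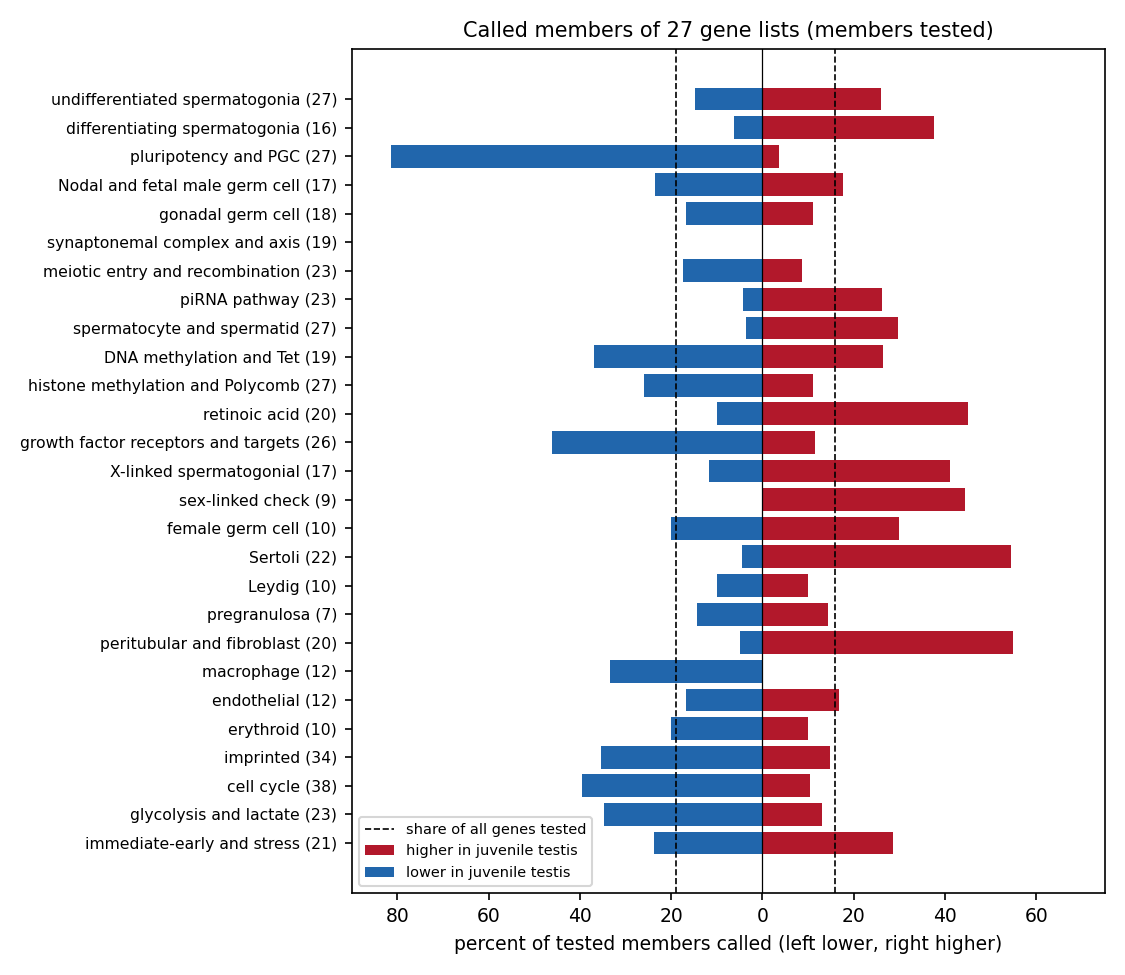
Percent of the tested members of 27 gene lists called higher (right, red) or lower (left, blue) in juvenile testis than in E13.5, with the number tested in brackets and dashed lines at the shares of all genes tested (16% higher, 18.9% lower). The pluripotency and PGC list stands furthest to the left, and no synaptonemal complex gene was called.

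Members of the following lists were also counted against the E13.5 arrays singly, in comparisons that share the juvenile testis arrays. Against E13.5 replicate 2 alone, without the library that went against its label, 18.6% of all genes were called higher and 21.8% lower, and list members called were 7 higher and 8 lower for undifferentiated spermatogonia, 10 higher and 0 lower for differentiating spermatogonia, 7 higher and 2 lower for meiotic entry and recombination, 9 higher and 2 lower for the piRNA pathway, 4 higher and 7 lower for DNA methylation, 2 higher and 9 lower for histone methylation and Polycomb. The counts were also 9 higher and 3 lower for retinoic acid, 3 higher and 11 lower for growth factor receptors and targets, 6 higher and 1 lower for spermatocytes and spermatids, 6 higher and 19 lower for the cell cycle, 3 higher and 12 lower for glycolysis, 9 higher and 11 lower for imprinted genes, 4 higher and 2 lower for oocyte genes, 4 higher and 4 lower for immediate-early and stress genes.

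Against E13.5 replicate 1 alone, 16.4% of all genes were called higher and 18.9% lower, and list members called were 9 higher and 2 lower for undifferentiated spermatogonia, 6 higher and 1 lower for differentiating spermatogonia, 1 higher and 6 lower for meiotic entry and recombination, 6 higher and 3 lower for the piRNA pathway, 5 higher and 8 lower for DNA methylation, 3 higher and 7 lower for histone methylation and Polycomb. The counts were also 7 higher and 2 lower for retinoic acid, 3 higher and 9 lower for growth factor receptors and targets, 7 higher and 0 lower for spermatocytes and spermatids, 5 higher and 15 lower for the cell cycle, 3 higher and 7 lower for glycolysis, 5 higher and 15 lower for imprinted genes, 3 higher and 3 lower for oocyte genes, 5 higher and 5 lower for immediate-early and stress genes.

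Genes of Nodal signalling and of the fetal male germ cell gave differences that turned on the E13.5 array. Nodal itself was at -2.61 and -2.71 in juvenile testis, against -1.39 and 3.37 in E13.5. It was lower in juvenile testis by the limma fit (-3.65 ± 1.01, adjusted p of 0.0151), and the difference was -1.27 against E13.5 replicate 1 and -6.03 against E13.5 replicate 2. Lefty1 differed by -1.95 and -9.98 in the same order. Of 17 members tested, 3 were higher and 4 lower, against 16% and 18.9% of all genes. Counts were 7 higher and 4 lower against replicate 1 alone, and 3 higher and 9 lower against replicate 2 alone. They were 1 higher and 3 lower with array weights and 0 higher and 0 lower with the 4 arrays alone. Cdkn1c, the CDK inhibitor p57, was at 0.17 and 1.68 in juvenile testis, against 3.6 and 2.92 in E13.5, a difference of -2.34 ± 0.38. Cyp26b1, which degrades retinoic acid, was higher by 1.49 ± 0.39, and the receptor gene Fgfr1 was lower, at -0.79 ± 0.21. Cyp26b1 differed by 1.07 without juvenile testis replicate 1 (not called), and Fgfr1 differed by -0.52 without juvenile testis replicate 1 (not called). Lefty1 differed by -5.88 without juvenile testis replicate 1 (not called), -6.04 without juvenile testis replicate 2 (not called), -9.98 without E13.5 replicate 1 and -1.95 without E13.5 replicate 2, and Nodal differed by -3.7 without juvenile testis replicate 1 (not called), -3.6 without juvenile testis replicate 2 (not called), -6.03 without E13.5 replicate 1 and -1.27 without E13.5 replicate 2.

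For meiosis, no synaptonemal complex or axis gene of 19 tested passed the limma test in either direction, in the fit of all arrays, of the 4 arrays or with array weights, and 3 had an unadjusted p under 0.05 in the first. The answer again differed between the E13.5 arrays. Against E13.5 replicate 1 alone 0 members were higher and 6 lower in juvenile testis, with a median of -0.79, whereas against E13.5 replicate 2 alone 7 were higher and 0 lower, with a median of 0.72. Between the E13.5 arrays, 15 of the 19 were higher by more than 1 on replicate 1, against 14.6% of all genes. Sycp3, a core protein of the chromosome axis, was at 1.46 and 0.12 in juvenile testis, against 1.13 and -1.77 in E13.5. The axis cohesin gene Rec8, picked after its values were seen, was at 4.48 and 3.24 in juvenile testis, against 7.45 and 3.14 in E13.5, so that E13.5 replicate 1 was the highest of the 4 arrays. Stra8 was at 7.75 and 7.06 in juvenile testis, against 8.87 and 1.55 in E13.5. Juvenile testis lay below E13.5 replicate 1 and above E13.5 replicate 2, with differences of -1.47 and 5.86. The juvenile testis arrays differed as well, with 11 of 19 members higher by more than 1 on replicate 1 and 0 lower.

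Among 23 genes of meiotic entry and recombination tested, 2 were higher and 4 lower, against 16% and 18.9% of all genes. The share called either way was 26.1%, below the 34.8% of all genes. Mnd1, a partner of the recombinase DMC1, was at 0.6 and 1.05 in juvenile testis, against 2.34 and 3.46 in E13.5, a difference of -2.08 ± 0.32. Hsf2bp was lower, at -1.68 ± 0.53, and Mlh3 and Tex15 were higher by 0.71 ± 0.19 and 1.64 ± 0.58. No call on this list was made with the 4 arrays alone, and 2 genes were called lower and 0 higher with array weights. Hsf2bp differed by -1.21 without juvenile testis replicate 2 (not called) and -1.32 without E13.5 replicate 1 (not called), and Mlh3 differed by 0.61 without juvenile testis replicate 2 (not called). Tex15 differed by 1.3 without juvenile testis replicate 1 (not called), 1.98 without juvenile testis replicate 2 (not called), 2.78 without E13.5 replicate 1 and 0.51 without E13.5 replicate 2 (not called).

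Genes of the piRNA pathway, which silences transposons in the male germ line, were more often higher than lower. Of 23 tested 6 rose and 1 fell, against 16% and 18.9% of all genes, with a median of 0.59. With array weights 5 were called higher, and 1 with the 4 arrays alone. Tdrd9, a helicase of transposon silencing, was at 2.74 and 3.0 in juvenile testis, against -0.25 and -2.36 in E13.5, a difference of 4.17 ± 0.54. Henmt1, which methylates the piRNA end, was at -0.55 and 0.41 in juvenile testis, against -3.66 and -5.85 in E13.5, a difference of 4.68 ± 0.6. E13.5 replicate 2 was the lowest array for both genes, and the groups did not overlap. Piwil1 (MIWI), best known from spermatocytes and spermatids, was at -1.27 and -0.84 in juvenile testis, against -3.52 and -3.82 in E13.5, a difference of 2.61 ± 0.26. Kif17, a kinesin linked to the MIWI complex, was at least 8.49-fold higher, and Tdrd1 differed by 1.83 ± 0.27. Tdrd3, a Tudor protein, was the lower member at -1.91 ± 0.21. Piwil4 (MIWI2), which directs methylation in fetal male germ cells, was at 0.15 and 1.22 in juvenile testis, against 0.36 and -0.17 in E13.5, and the groups overlapped (limma adjusted p of 0.592).

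The DNA methylation machinery moved in both directions, with 5 of 19 genes tested higher and 7 lower, against 16% and 18.9% of all genes. Beside Dnmt3b, at 3.47 ± 0.34, the other de novo enzyme Dnmt3a was at 2.59 and 3.01 in juvenile testis, against 1.53 and 1.8 in E13.5, a difference of 1.14 ± 0.29. Dnmt3l, their cofactor in fetal male germ cells, was at -1.41 and -1.09 in juvenile testis, against -3.38 and -1.65 in E13.5. Dnmt3l was called at 1.27 ± 0.4, and the difference was only 0.4 against E13.5 replicate 2 alone. The Tet genes, whose enzymes oxidise methylcytosine, split. Tet3 was at -0.15 and -0.67 in juvenile testis, against -2.74 and -4.57 in E13.5, and rose by 3.24 ± 0.47. Tet1 was at -2.54 and -2.72 in juvenile testis, against -0.84 and 0.76 in E13.5, a difference of -2.6 ± 0.38, and Tet2 was at least 5.29-fold lower, with no juvenile testis array well above background. Morc1, needed for transposon silencing in the male germ line, was higher by 1.63 ± 0.38. Uhrf2, Mbd3, Trim28 and Apobec1 were lower, at -1.19, -1.2, -1.4 and -1.54. With array weights 2 members were called higher and 2 lower, and with the 4 arrays alone 0 and 0. Apobec1 differed by -1.21 without juvenile testis replicate 2 (not called), -2.37 without E13.5 replicate 1 and -0.71 without E13.5 replicate 2 (not called), and Dnmt3a differed by 0.93 without juvenile testis replicate 2 (not called). Dnmt3l differed by 1.43 without juvenile testis replicate 1 (not called), 1.11 without juvenile testis replicate 2 (not called), 0.4 without E13.5 replicate 1 (not called) and 2.13 without E13.5 replicate 2, and Morc1 differed by 2.46 without juvenile testis replicate 1 and 0.8 without juvenile testis replicate 2. Trim28 differed by -0.93 without E13.5 replicate 2.

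Of 27 genes of histone methylation and Polycomb tested, 3 were higher and 7 lower, against 16% and 18.9% of all genes. Ezh2, the methyltransferase of Polycomb complex PRC2, was at 1.65 and 0.88 in juvenile testis, against 2.89 and 2.92 in E13.5, a difference of -1.64 ± 0.22. Rnf2, the ubiquitin ligase of PRC1, was at 1.62 and 1.24, against 2.65 and 2.82, a difference of -1.3 ± 0.19. Jarid2, Bmi1, Cbx7 and Pcgf6 were lower, at -1.17, -1.74, -1.34 and -1.26. With Scml2, the members called higher were the PRC1 subunit gene Cbx2, at 0.93 ± 0.27, and the H3K9 methyltransferase gene Suv39h2, at 0.63 ± 0.21 (-0.20 as the mean of its probes). With array weights 3 were called lower and 1 higher, and with the 4 arrays alone 0 and 0. Bmi1 differed by -1.15 without juvenile testis replicate 2, and Cbx2 differed by 0.54 without juvenile testis replicate 2 (not called) and 0.54 without E13.5 replicate 2 (not called). Cbx7 differed by -0.81 without juvenile testis replicate 1, and Pcgf6 differed by -0.6 without juvenile testis replicate 1 and -1.91 without juvenile testis replicate 2. Suv39h2 differed by 0.37 without juvenile testis replicate 2 (not called) and 0.47 without E13.5 replicate 1 (not called).

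Retinoic acid genes were more often higher, with 9 of 20 tested called higher and 2 lower, against 16% and 18.9% of all genes. The median was 0.89, and 1 was called higher with array weights and 1 with the 4 arrays alone. Among enzymes that make retinoic acid, Aldh1a3 was at least 10.8-fold higher, with no E13.5 array well above background, and Aldh1a2 was at 3.36 and 1.95 in juvenile testis, against -0.49 and 1.73 in E13.5. Aldh1a2 differed by 3.14 against E13.5 replicate 1 and by 0.93 against E13.5 replicate 2. Among enzymes that degrade it, Cyp26a1 was at -1.02 and -0.84 in juvenile testis, against -3.72 and -6.52 in E13.5, a difference of 4.19 ± 0.92. Rbp4, a retinol carrier, was higher by 2.65 ± 0.4, and Crabp2 was at least 4.62-fold lower. Aldh1a2 differed by 1.33 without juvenile testis replicate 1 (not called), 0.93 without E13.5 replicate 1 (not called) and 3.14 without E13.5 replicate 2, and Cyp26a1 differed by 2.79 without E13.5 replicate 2.

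Growth factor receptors and their target genes were more often lower. Of 26 tested 12 fell and 3 rose, against 18.9% and 16% of all genes, with a median of -0.87. Id3, a target of BMP signalling, was at -0.67 and -0.78 in juvenile testis, against 4.72 and 2.69 in E13.5, a difference of -4.43 ± 0.51. Id1, another such target, was at -2.66 and -2.69 in juvenile testis, against 3.22 and -0.24 in E13.5, a difference of -4.16 ± 0.77. For both, E13.5 replicate 1 was the higher E13.5 array and the juvenile testis arrays lay close together. The BMP receptor gene Bmpr1a and the inhibitory Smad gene Smad6 were lower, at -1.25 ± 0.2 and -2.55 ± 0.45. Fgfr2 was at -5.37 and -4.26 in juvenile testis, against -1.58 and 0.35 in E13.5, a difference of -4.2 ± 0.64, and the FGF feedback gene Spry2 was lower, at -1.82 ± 0.36. Beside Gfra1, the members called higher were the insulin-like growth factor receptor gene Igf1r, at 2.01 ± 0.31, and Fgfr4, at 1.15 ± 0.28. With array weights 5 lower members were called, and none with the 4 arrays alone. Id1 differed by -2.43 without E13.5 replicate 1.

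X-linked genes of spermatogonia were more often higher, with 7 of 17 tested called higher and 2 lower, against 16% and 18.9% of all genes. The median was 1.63, and it was 0.52 against E13.5 replicate 1 alone and 2.71 against E13.5 replicate 2 alone. After normexp background correction it was 0.65. With array weights 2 were called higher, and with the 4 arrays alone 1. Esx1, a homeobox gene of testis and placenta, was at 4.9 and 1.78 in juvenile testis, against -2.94 and -6.35 in E13.5. Nxf2, an mRNA export factor of germ cells, was at 1.87 and 2.26 in juvenile testis, against -3.19 and -4.86 in E13.5. Neither overlapped between groups, with differences of 7.98 ± 1.03 and 6.09 ± 0.72, and Nxf2 was also called with the 4 arrays alone (0.0451). Mageb4, Nxf3, Usp26 and Tktl1 differed by 3.49, 3.87, 2.41 and 3.55, and Zfx and Rhox2a were lower, at -0.66 and -1.45. Over all 551 genes tested on chromosome X, 21.1% were called higher and 27.9% lower, against 16.9% and 19.6% of the autosomal genes. Their median difference was -0.39 against E13.5 replicate 1 and -0.03 against E13.5 replicate 2. For the autosomal genes it was -0.06 and -0.10, so the X-linked median was the lower only against E13.5 replicate 1. On chromosome Y, Rbmy, an RNA-binding protein gene present in several near-identical copies that 1 probe need not tell apart, was at 5.15 and 5.57 in juvenile testis, against -7.7 and -2.56 in E13.5. It had the largest difference of the genes that met the naming rule, 10.49 ± 1.15 (limma adjusted p of 4.65e-05), and remained 7.92 higher against E13.5 replicate 2 alone. Usp9y was at least 10.3-fold higher, with no E13.5 array well above background. Rhox2a differed by -1.55 without juvenile testis replicate 1 (not called), -1.35 without juvenile testis replicate 2 (not called) and -0.79 without E13.5 replicate 1 (not called), and Tktl1 differed by 1.88 without E13.5 replicate 2. Zfx differed by -0.37 without juvenile testis replicate 2 (not called) and -0.47 without E13.5 replicate 1 (not called).

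After Rbmy, the largest rises by fitted difference were those of Cst12, Esx1, Svs5, Tmem132e, Radx, Eppin, Rspo2, Myh7, Myh6, Adcy10 and Afp. Cst12, a cystatin gene of the testis, was at 4.19 and 1.69 in juvenile testis, against -5.67 and -4.96 in E13.5, a difference of 8.26 ± 0.62. Radx, an X-linked gene for a protein of replication forks, was at 2.27 and 2.28 in juvenile testis, against -4.06 and -4.87 in E13.5. The groups lay far apart and differed by 6.74 ± 0.36, with an adjusted p of 5.23e-07 in limma and 0.0435 in the fit of the 4 arrays. Svs5, a seminal vesicle secretory protein gene, was at least 106-fold higher, and Eppin, a protease inhibitor gene known from Sertoli cells and epididymis, differed by 6.63 ± 1.04. Myh7 and Myh6, cardiac myosin heavy chain genes whose sequences are nearly the same, have probes that need not tell them apart. Myh7 was at 2.35 and 2.15 in juvenile testis, against -4.28 and -3.77 in E13.5. Myh6 was at 1.65 and 1.62 in juvenile testis, against -4.81 and -4.35 in E13.5. Rspo2, a Wnt agonist gene, was at least 35.5-fold higher, Adcy10, the soluble adenylyl cyclase gene, was at least 46.2-fold higher and Tmem132e was at least 51.7-fold higher, with no E13.5 array well above background for these genes. Afp, the alpha-fetoprotein gene, differed by 6.15 ± 1.06. Afp differed by 3.95 without E13.5 replicate 1.

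The largest falls by fitted difference, after Sox2 and Dppa3, included those of Gdf3, Nanog, Rhox9, Ap3b2, Enpp3, Asb4, Rhox6, Liph and Siglecf. Gdf3, a growth factor of pluripotent cells, was at -7.64 and -8.16 in juvenile testis, against -0.6 and 1.3 in E13.5, and was at least 66.1-fold lower. Rhox9 and Rhox6 are homeobox genes of the X-linked Rhox cluster that are active in PGCs. Rhox9 was at -1.37 and -0.6 in juvenile testis, against 8.19 and 4.74 in E13.5, and Rhox6 was at -2.02 and -1.79, against 6.65 and 3.01. Both were highest on E13.5 replicate 1, and the groups did not overlap. Rhox5, of the same cluster, was listed here as a Sertoli gene and was the member of that list that fell, at 2.73 and 0.71 in juvenile testis, against 8.7 and 7.67 in E13.5, a difference of -6.47 ± 0.69 (limma adjusted p of 3.91e-05). Ap3b2, an adaptor subunit of vesicle transport, differed by -7.07 ± 0.47, the lipase gene Liph by -6.67 ± 0.53 and the ectonucleotide pyrophosphatase gene Enpp3 by -7.04 ± 0.67. Siglecf, a sialic acid receptor gene, was at least 29.5-fold lower. Asb4, an imprinted gene, was at -7.55 and -3.4 in juvenile testis, against 1.25 and 1.58 in E13.5, with the juvenile testis arrays far apart.

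Genes of spermatocytes and spermatids were more often higher than lower in juvenile testis. Of 27 tested 8 were higher and 1 lower, against 16% and 18.9% of all genes. With array weights 2 were called higher, and 0 with the 4 arrays alone. Clgn, a chaperone of spermatocytes and spermatids, was at 1.82 and 1.03 in juvenile testis, against -1.0 and -2.23 in E13.5, a difference of 3.04 ± 0.46. Pdha2, a testis form of a pyruvate dehydrogenase subunit, was at 0.04 and 0.71 in juvenile testis, against -2.27 and -3.19 in E13.5, a difference of 3.11 ± 0.51. Spata16, an acrosome gene, was at least 1.42-fold higher (-0.090 on the log2 scale after normexp background correction), and Calr3 and Zpbp differed by 0.82 ± 0.22 and 1.22 ± 0.35. Pttg1, securin, was the lower member at -0.83 ± 0.3. Of 10 oocyte genes tested, 3 were higher and 2 lower, against 16% and 18.9% of all genes. The oocyte counts were 1 higher and 2 lower with array weights and 1 higher and 0 lower with the 4 arrays alone. Zp3, a zona pellucida gene, was higher by 3.6 ± 0.27, Lhx8 by 2.37 ± 0.4 and Gdf9 by 1.44 ± 0.31, while Ooep and Kdm5b were lower, at -4.18 ± 0.5 and -1.22 ± 0.2. The sign of Kdm5b turned when its probes were averaged (0.063). Calr3 differed by 0.66 without E13.5 replicate 1 (not called), and Pttg1 differed by -0.49 without juvenile testis replicate 1 (not called), -1.29 without E13.5 replicate 1 and -0.36 without E13.5 replicate 2 (not called). Zpbp differed by 1.2 without juvenile testis replicate 1 (not called), 1.24 without juvenile testis replicate 2 (not called) and 1.04 without E13.5 replicate 2 (not called).

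Cell cycle genes were more often lower, with 15 of 38 tested lower and 4 higher, against 18.9% and 16% of all genes. The cell cycle counts were 1 higher and 6 lower with array weights and 0 higher and 0 lower with the 4 arrays alone. Cdkn1a, the CDK inhibitor p21, was at -1.45 and -1.54 in juvenile testis, against 0.75 and 0.46 in E13.5, a difference of -2.1 ± 0.18. The cyclin genes Ccne1, Ccnb2, Ccna2 and Ccnd3 were lower, at -1.84, -1.34, -1.3 and -1.72, and the replication licensing gene Mcm3 was at -0.98. Beside Ccnd2, Cdkn2a, which encodes p16 and ARF, was higher by 1.42 ± 0.23 and Rbl1 by 1.36 ± 0.28. Glycolytic genes ran the same way, with 8 of 23 lower and 3 higher, and 1 higher and 5 lower with array weights and 0 higher and 1 lower with the 4 arrays alone. Slc2a3, a glucose transporter gene, was at 0.02 and 0.02 in juvenile testis, against 2.61 and 2.97 in E13.5, a difference of -2.77 ± 0.19 that also passed with the 4 arrays alone (0.0474). Pgk1, Pfkm, Tpi1, Pfkl and Ldha were lower, at -2.25, -1.47, -2.0, -1.65 and -1.78. Aldoc and Hk1 were higher by 2.06 ± 0.4 and 1.46 ± 0.43. Ccnd3 differed by -1.07 without juvenile testis replicate 1, and Hk1 differed by 0.91 without juvenile testis replicate 2 (not called) and 1.13 without E13.5 replicate 2 (not called). Ldha differed by -1.07 without E13.5 replicate 1, and Pfkl differed by -1.01 without juvenile testis replicate 2. Rbl1 differed by 0.79 without juvenile testis replicate 1.

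Of 34 imprinted genes tested, 12 were lower and 5 higher, against 18.9% and 16% of all genes. Snrpn was at -2.19 and -1.7 in juvenile testis, against 0.97 and 2.51 in E13.5, a difference of -3.68 ± 0.37, and Peg3 was at -2.29 and -3.07, against -0.4 and 0.31, a difference of -2.64 ± 0.29. Slc38a4 and Peg12 were also lower, at -4.03 ± 0.55 and -3.24 ± 0.55. Gatm, Sgce and Dlk1 were higher by 3.25 ± 0.49, 2.73 ± 0.35 and 2.42 ± 0.45. With array weights 5 were called lower and 3 higher, and with the 4 arrays alone 1 and 0.

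Immediate-early and stress genes moved both ways, with 6 of 21 tested higher and 5 lower, against 16% and 18.9% of all genes. Their counts were 2 higher and 0 lower with array weights and 0 higher and 0 lower with the 4 arrays alone. Egr1, an early growth response gene, was at 0.83 and 2.58 in juvenile testis, against -2.11 and 0.34 in E13.5, and Hspa1a, a heat shock gene, was at 1.02 and 1.6, against -4.89 and -1.44. The differences were 2.59 ± 0.71 and 4.47 ± 0.76. Fos, Myc and Dnajb1 were lower, at -0.83 ± 0.28, -1.68 ± 0.39 and -1.1 ± 0.21. Egr1 differed by 1.72 without juvenile testis replicate 2 (not called) and 1.37 without E13.5 replicate 1 (not called), and Fos differed by -0.62 without juvenile testis replicate 2 (not called), -0.4 without E13.5 replicate 1 (not called) and -1.25 without E13.5 replicate 2. Hspa1a differed by 2.75 without E13.5 replicate 1, and Myc differed by -0.91 without E13.5 replicate 2.

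Markers of other gonadal cells were measured beside these results, since a sort can carry other cells. Of 22 Sertoli genes tested, 12 were higher in juvenile testis and 1, Rhox5, was lower, against 16% and 18.9% of all genes. With array weights 1 was called higher, and with the 4 arrays alone 0. The summed level of all 22, on the linear scale with 1 at the 75th percentile, was 139 and 58.5 in juvenile testis, against 439 and 232 in E13.5, so that the sum was lower in juvenile testis. Rhox5 made up most of the E13.5 sum: without it the sum of the other 21 was 132 and 56.9 in juvenile testis, against 22.3 and 28.1 in E13.5. Clu, the clusterin gene, was at 5.1 and 2.75 in juvenile testis, against -2.17 and 1.18 in E13.5, and Sox9, which drives Sertoli cell fate, was at 0.12 and -1.64, against -7.6 and -1.76. Clu was higher by 4.42 ± 0.87, and by 2.74 without E13.5 replicate 1. Juvenile testis replicate 1 was the highest array for both, and 12 of the 22 genes were higher there by more than 1 than on replicate 2. Inha, Wt1 and Ctsl were higher by 3.13 ± 0.59, 2.24 ± 0.59 and 1.6 ± 0.28, and Fshr was at least 4.61-fold higher. The count of higher members was 6 without juvenile testis replicate 1, 12 without juvenile testis replicate 2, 13 against E13.5 replicate 1 alone and 5 against E13.5 replicate 2 alone. Between the E13.5 arrays, 11 of the 22 Sertoli genes were lower by more than 1 on replicate 1 and 1 was higher, against 11.3% and 14.6% of all genes. The median of E13.5 replicate 1 minus replicate 2 was -1.02. The part of Sertoli genes in the rises of genes such as Cst12 and Eppin was not tested. Sox9 differed by 3.04 without juvenile testis replicate 1 (not called), 1.0 without E13.5 replicate 1 (not called) and 6.84 without E13.5 replicate 2 (the other E13.5 array not well above background), and Wt1 differed by 1.64 without juvenile testis replicate 1 (not called) and 1.18 without E13.5 replicate 1 (not called).

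**Figure D5:**
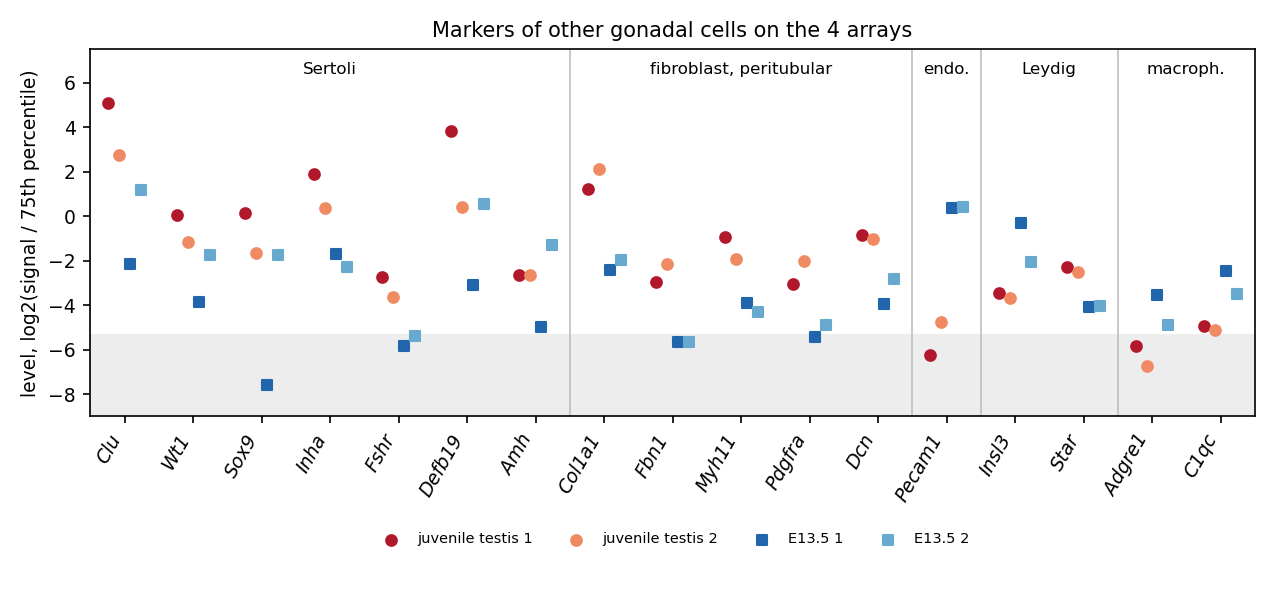
Levels of 17 markers of other gonadal cells (log2 of the signal over the array's 75th percentile) on the juvenile testis arrays (circles) and the E13.5 arrays (squares), 1 point per array; the grey band lies below the level at which probes were well above background. Clu, Wt1, Inha and Col1a1 were higher on both juvenile testis arrays than on either E13.5 array, Amh was not, and Pecam1 was lower.

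Of 20 peritubular and fibroblast genes tested, 11 were higher and 1 lower, and the summed level was 24.3 and 23.8 in juvenile testis, against 15.1 and 22.4 in E13.5. Col1a1, a collagen gene, was at 1.21 and 2.1 in juvenile testis, against -2.42 and -1.95 in E13.5, a difference of 3.84 ± 0.5 that also passed with the 4 arrays alone (0.0466). Fbn1 was at least 7.23-fold higher, and Myh11 and Pdgfra differed by 2.68 ± 0.35 and 2.63 ± 0.44. Macrophage genes were lower or not called, 4 of 12 lower and 0 higher, and their summed level was 1.09 and 1.46 in juvenile testis, against 2.25 and 1.82 in E13.5. Pecam1, an adhesion gene of endothelial cells that PGCs also express, was at -6.26 and -4.74 in juvenile testis, against 0.38 and 0.41 in E13.5, a difference of -5.89 ± 0.4. On the endothelial list 2 of 12 were higher and 2 lower, against 16% and 18.9% of all genes. The summed level of that list was 6 and 7.6 in juvenile testis, against 4.99 and 7.56 in E13.5. On the Leydig list Insl3 was lower, at -2.37 ± 0.41 and Star higher by 1.67 ± 0.49, of 10 tested, with a summed level of 7.04 and 12.2 in juvenile testis, against 9.79 and 7.91 in E13.5. Of 7 pregranulosa genes Fst was higher and Lgr5 lower. The erythroid list had 1 higher and 2 lower of 10, with the embryonic globin genes Hba-x, at least 3.53-fold lower, and Hbb-y, lower, at -2.96 ± 0.57, as the members that fell. Members called either way were 33.3% on the endothelial and macrophage lists, 30% on the erythroid list and 28.6% on the pregranulosa list. They were 20% on the Leydig list and 60% on the peritubular and fibroblast list, against 34.8% of all genes. Fst differed by 2.29 without juvenile testis replicate 2 (not called) and 2.19 without E13.5 replicate 1 (not called), and Insl3 differed by -1.48 without E13.5 replicate 1. Lgr5 differed by -1.15 without juvenile testis replicate 1 (not called), -1.86 without E13.5 replicate 1 (not called) and -2.11 without E13.5 replicate 2 (not called), and Star differed by 1.54 without juvenile testis replicate 1 (not called), 1.65 without E13.5 replicate 1 (not called) and 1.7 without E13.5 replicate 2 (not called).

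Counts of these lists were also taken in the other comparisons, whose shares of all genes were given above. With array weights 3.14% of all genes were higher and 5.07% lower, and with the 4 arrays alone 1.01% and 0.922%. The peritubular and fibroblast list had 11 higher and 1 lower against E13.5 replicate 1 alone, and 8 higher and 1 lower against E13.5 replicate 2 alone, and 3 higher and 0 lower with array weights and 1 higher and 0 lower with the 4 arrays alone. For macrophage genes there were 0 higher and 5 lower against E13.5 replicate 1 alone, and 0 higher and 4 lower against E13.5 replicate 2 alone, and 0 higher and 0 lower with array weights and 0 higher and 0 lower with the 4 arrays alone. Endothelial genes gave 2 higher and 3 lower against E13.5 replicate 1 alone, and 4 higher and 2 lower against E13.5 replicate 2 alone, and 0 higher and 2 lower with array weights and 0 higher and 1 lower with the 4 arrays alone. The Leydig list had 1 higher and 1 lower against E13.5 replicate 1 alone, and 0 higher and 2 lower against E13.5 replicate 2 alone, and 0 higher and 1 lower with array weights and 0 higher and 0 lower with the 4 arrays alone. Among pregranulosa genes there were 1 higher and 2 lower against E13.5 replicate 1 alone, and 0 higher and 1 lower against E13.5 replicate 2 alone, and 0 higher and 0 lower with array weights and 0 higher and 0 lower with the 4 arrays alone. Erythroid genes had 1 higher and 2 lower against E13.5 replicate 1 alone, and 1 higher and 4 lower against E13.5 replicate 2 alone, and 1 higher and 0 lower with array weights and 0 higher and 2 lower with the 4 arrays alone. On the Sertoli list the members called lower were 1 against E13.5 replicate 1 alone and 2 against E13.5 replicate 2 alone.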

How the data were processed

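Gene expression was measured on 18 one-colour Agilent arrays, 2 for each of 9 groups, which GEO's labels assign. Signal intensities were extracted and background-subtracted by the authors; per the file headers, the software was Feature Extraction 9.1.3.1 from Agilent. A deposited set of group mean intensities, normalized to the median by the authors, was used only for directions. In it 13533 genes matched, and all 4598 genes called and matched ran the same way. Those means came from the same arrays, so the shared direction is not independent support.

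From the deposited intensities, control spots and 183 outlier-flagged probes of 41174 were left out and replicate spots averaged. The log2 of the processed signal was taken relative to the array's 75th percentile. Probes well above background on both arrays of any of the groups were kept (28103). The probe with the highest mean level over all 18 arrays stood for its gene, which gave 18870 genes. Probes were named by accession (22951), symbol (6659) or synonym (3096) through RefSeq tables, and 8468 kept the file's name. Differences were tested with limma 3.58.1 in R 4.3.3 (lmFit and eBayes, two-sided, 9 residual degrees of freedom) over all 18 arrays, and p-values were adjusted over all genes tested by the Benjamini-Hochberg method. The procedure was tested on simulated data that gave each gene the same spread in all groups. Juvenile testis and E13.5 spread more than the other groups, so this test cannot show how well the calls of their comparison hold. The number of arrays limits the precision.

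A bound ("at least") is used where no array of the lower group was well above background: it sets the mean of the higher group against, per array, the higher of the probe's own level and the lowest level well above background. Genes named were a fixed panel, the 12 largest differences in each direction, up to 6 called members of each list and direction by p, any marker of other cells, and the 10 largest differences in each direction between the E13.5 arrays. The 27 lists hold 560 genes, of which 488 were tested. The comparison, its members and the lists were chosen with earlier results of these data known. List genes without a probe were not analysed here, and some genes that met the naming rule are not reported here. Alternatives covered scaling, background correction, filters, probe choice, the prior, the arrays in the fit, array weights, slide, replicate block, size of difference and leaving out each array.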

Additional observations from a re-analysis of the deposited data

How the results depend on the processing

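The number of calls depended most on how the spread was estimated: 6575 genes were called with all 18 arrays, 365 with only the 4 arrays compared (191 higher, 174 lower) and 1549 with array weights (592 higher, 957 lower), and members of the 27 lists called numbered 222, 24 and 90. Of 170 called genes named in the text, 136 lost the call with only the 4 arrays compared and 75 with array weights. Juvenile testis and E13.5 had weights of 0.192 and 0.125, against 0.43 to 4.8 in the other groups. With normexp background correction 1797 genes were higher, against 3016, while the total of 4564 stayed within 1.5 times. Under each other alternative run, the counts stayed within 1.5 times, and the range when 1 array was left out was 5958 to 7610 genes in all, 2652 to 3502 higher, 3144 to 4108 lower and 200 to 246 list members. With the replicate block 6654 genes were called (3058 higher, 3596 lower), and 231 list members. The labels do not tie same-numbered arrays to one source, and the numbers were not taken as pairs: deviations of same-numbered juvenile testis and E13.5 arrays correlated at 0.245, and those of all 36 pairs of groups at -0.14 to 0.558 (median -0.018), which leaves a shared source of the 4 arrays untested.

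Signs turned for these genes, and the cause was not tested. After normexp they were Amh (-0.23), Ovol1 (-0.21), Pmaip1 (-0.13), Spata16 (-0.090) and Upp1 (-0.31). With probes averaged they were Kdm5b (0.063) and Suv39h2 (-0.20), and under quantile normalization Dazl (0.019). Leaving out 1 array turned the sign of genes that were not called, most of them genes on which the E13.5 arrays split, with lowest and highest values as follows.
They were Amh -1.34 to 2.36, Cstad -4.20 to 2.45, Ctsw -5.99 to 0.70, Eif2s3y -0.99 to 9.48, Figla -1.49 to 4.81, Gata2 -4.85 to 1.28, Kdm5d -0.41 to 5.02, Kit -0.45 to 0.075, Lefty2 -6.83 to 0.89, Lypd4 -4.42 to 2.67, Nanos2 -3.22 to 2.80, Ovol1 -1.56 to 4.56, Phlda2 -5.21 to 2.60, Pmaip1 -3.83 to 5.09, Rec8 -3.58 to 0.72, Sct -6.91 to 0.59, Stra8 -1.47 to 5.86 and Sycp3 -0.34 to 2.56. Levels near or below background on the arrays limit the differences of dim genes.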
